A study of Mus musculus with 10 samples.

Results

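Imprinted genes are transcribed mainly from the allele of 1 parent, and the 10 described here, H19, Meg3, Peg3, Mest, Plagl1, Cdkn1c, Grb10, Ndn, Zim1 and Impact, were taken from the deposited count table by their symbols. The table lists 56748 genes, and all 10 were found in it and were abundant enough to test. RNA-seq was performed on primary differentiated adipocytes from control (Fam20c-flox) mice and from Ad-Fam20c–KO (Fam20c-flox/Adipoq-Cre) mice, with 5 libraries per genotype. Both genotypes carried the floxed Fam20c allele, and the Cre transgene is the difference between the groups that the labels name. The cultures were stromal vascular cells of inguinal fat from male mice 6 to 8 weeks old, differentiated for 6 to 8 days with IBMX, dexamethasone, insulin and rosiglitazone. The adiponectin promoter drives Cre in adipocytes, whereas the cultures also hold cells that are not adipocytes. The labels do not say that the libraries of a group came from separate cultures or animals, so p-values measure the spread between these libraries.

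Many imprinted genes act on growth, with paternally expressed genes tending to promote it and maternally expressed genes to restrain it. In adipose tissue, Mest is known for its link to fat expansion, Ndn for restraining adipogenesis, and Grb10, an adaptor protein, for dampening signaling from the insulin and IGF1 receptors. The members are the paternally expressed Mest, Plagl1, Peg3, Ndn and Impact and the maternally expressed H19, Meg3, Cdkn1c, Grb10 and Zim1. This parental assignment is background knowledge, and the counts were summed over both alleles. They do not show which allele was transcribed.

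Of the 10 genes, Mest was lower in KO adipocytes and the other 9 did not pass the test. Plagl1 and Cdkn1c also had lower means in KO, with unadjusted p-values under 0.05. H19, Meg3 and Zim1 varied between libraries of 1 genotype far more than most genes of their level did. H19, Grb10 and Zim1 were highest, and Ndn and Impact lowest, in the same 2 libraries, 1 of each genotype.

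Promoters are shown for the imprinted genes whose RNA passed the test, namely Mest and, from a wider list of imprinted genes described further on, Dio3 and Nnat. The windows run from 250 bases before to 50 bases after a start site of RefSeq on GRCm38.p6, all on the plus strand. Capitals mark CG dinucleotides, the sites of DNA methylation on which parental imprints rest.
Mest, upstream start, chr6:30733256-30733555: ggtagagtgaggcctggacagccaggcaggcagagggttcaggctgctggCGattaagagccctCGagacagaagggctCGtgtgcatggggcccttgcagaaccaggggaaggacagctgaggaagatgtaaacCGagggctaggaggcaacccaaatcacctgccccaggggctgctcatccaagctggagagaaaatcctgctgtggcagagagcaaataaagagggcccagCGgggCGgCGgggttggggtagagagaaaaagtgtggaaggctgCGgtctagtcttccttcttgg
Mest, downstream start, chr6:30737800-30738099: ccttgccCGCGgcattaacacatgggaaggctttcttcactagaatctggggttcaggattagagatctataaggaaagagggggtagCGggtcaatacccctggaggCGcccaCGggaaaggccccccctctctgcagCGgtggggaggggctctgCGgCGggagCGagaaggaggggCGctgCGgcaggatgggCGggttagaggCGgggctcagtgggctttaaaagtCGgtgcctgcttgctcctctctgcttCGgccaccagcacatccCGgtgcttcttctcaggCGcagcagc
Dio3, chr12:110278980-110279279: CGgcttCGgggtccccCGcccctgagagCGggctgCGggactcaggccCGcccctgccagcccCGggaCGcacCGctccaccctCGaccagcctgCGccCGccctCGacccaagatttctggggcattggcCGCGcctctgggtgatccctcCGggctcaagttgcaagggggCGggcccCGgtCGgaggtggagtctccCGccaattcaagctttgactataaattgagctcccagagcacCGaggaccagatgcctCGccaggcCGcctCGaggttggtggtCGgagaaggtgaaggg
Nnat, chr2:157559828-157560127: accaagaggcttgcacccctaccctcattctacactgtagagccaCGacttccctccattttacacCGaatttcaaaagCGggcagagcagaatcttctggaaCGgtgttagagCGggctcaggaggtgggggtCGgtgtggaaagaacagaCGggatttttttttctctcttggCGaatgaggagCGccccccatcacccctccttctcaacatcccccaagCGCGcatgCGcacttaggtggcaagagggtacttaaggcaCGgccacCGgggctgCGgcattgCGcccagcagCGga
The upstream Mest window holds 8 CG dinucleotides and the downstream window 17, against a median of 7 over 32851 promoter windows. Nnat also has 17, a number reached by 31.4% of all windows, and Dio3 has 25, reached by 18.4%. Another Mest start lies 3 bases further on, and its window, also with 17, is nearly the same sequence. The counts of Mest were summed over the gene, so they do not tell the starts apart. DNA methylation was not measured.

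H19 and Cdkn1c had no matched RefSeq window, and Impact was left out of this search. RefSeq windows of the other 7 of the 10 members were used, 11 windows in all. They were searched on both strands for GGGGCCCC, a motif described for PLAGL1, for GCCATNTT, a motif described for YY1, and for the letters TATAAA. The PLAGL1 motif was found in 1 of the 11 windows, that of Peg3, and in 1.08% of all windows. None of the 11 held the YY1 motif, against 6.05% of all windows. TATAAA was in 1 of them, a window of Meg3, and in 13.6% of all windows, and the Dio3 window above holds it too. These are matches of letters, not binding sites.

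The members Mest, H19 and Meg3 are hosts of microRNAs, which are cut from the host transcript or its introns and were not measured in these libraries. The 5p arms are shown with the seed, bases 2 to 8, in capitals. The sequences are those of RefSeq.
miR-335-5p, within Mest, chr6:30741314-30741336, plus strand: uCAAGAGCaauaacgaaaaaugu
miR-675-5p, within H19, chr7:142577112-142577133, minus strand: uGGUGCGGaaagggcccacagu
miR-770-5p, within Meg3, chr12:109563710-109563731, plus strand: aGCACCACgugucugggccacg
The seeds of the 3 differ from each other. The values given for Mest, H19 and Meg3 are counts of the host genes only.

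Total counts ranged from 18949106 to 26237825 per library, and the 10 imprinted genes together took 7185 to 9929 counts, or 0.0340% to 0.0467% of a library. Fam20c, the targeted gene, averaged 10.2 ± 1.29 CPM (SD, n = 5) in control but 7.30 ± 0.449 CPM in KO libraries, where CPM is the count relative to the TMM-scaled library size. Every KO library lay below every control library (log2 fold change -0.49, quasi-likelihood test of edgeR, adjusted p = 0.0137). All 10 adipocyte markers of the list used were detected, with summed levels of 34973 to 35941 CPM in control and 35997 to 38188 CPM in KO libraries. Control 4 and KO 1 stood apart from the other 8 libraries on the first principal component, at 21.7 and 24.2 against -14.8 to 8.59, and values without them are given where they bear on a result.

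Levels of the 10 genes can be compared with each other only per length of exon. In control libraries, Grb10 had the highest level, 18.6 ± 2.71 CPM per kb (SD, n = 5), followed by H19 with 14.2 ± 7.23 and Impact with 14.1 ± 0.690 CPM per kb. Ndn had 6.16 ± 1.20, Cdkn1c 5.85 ± 0.736 and Mest 4.73 ± 0.522 CPM per kb. Peg3 stood at 3.01 ± 0.690 and Meg3 at 1.08 ± 0.575 CPM per kb. Plagl1, with 0.550 ± 0.0731, and Zim1, with 0.520 ± 0.292 CPM per kb, were lowest. Neighbors in this order were separated by more than their SDs at 3 places only, between Impact and Ndn, between Mest and Peg3, and between Peg3 and Meg3. The exon lengths are those of all annotated transcripts together, 18089 bases for Meg3 and 2039 for Cdkn1c, so a gene with many long isoforms comes out lower on this scale.

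**Figure D1:**
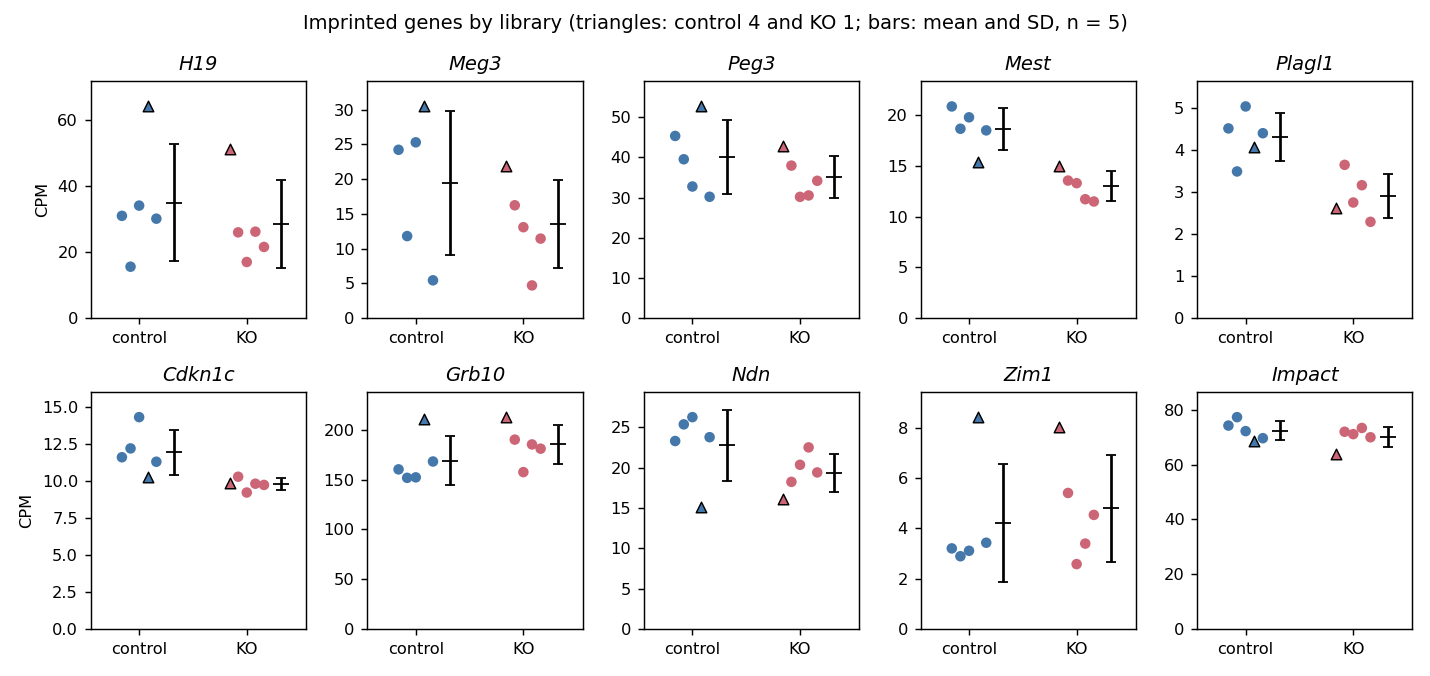
CPM of the 10 imprinted genes in each of 5 control (blue) and 5 KO (red) libraries, 1 panel per gene, each with its own vertical axis from 0. Triangles are control 4 and KO 1, and bars are the mean and SD of 5 libraries. The KO libraries of Mest all lie below its control libraries, whereas H19, Zim1 and Ndn are set apart by the triangles.

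Mest (ENSMUSG00000051855.16) encodes a protein of the alpha/beta hydrolase fold and lies at 30723547 to 30748465 of chromosome 6, plus strand. Levels in CPM were 20.9, 18.7, 19.8, 15.4 and 18.5 for control 1 to 5, against 15.03, 13.6, 13.3, 11.7 and 11.5 for KO 1 to 5. The lowest control library, control 4, was above the highest KO library, KO 1, by a small margin, and the groups did not overlap. Means were 18.6 ± 2.06 CPM for control and 13.03 ± 1.45 CPM for KO (SD, n = 5), and the log2 fold change was -0.52 with a standard error of 0.0932 (quasi-likelihood test of edgeR over 14270 genes, adjusted p = 0.0103). Without control 4 and KO 1, it was -0.63 (adjusted p = 0.000597). The 2-sided exact permutation test gave an unadjusted p = 0.00794, the smallest it can give with 5 libraries against 5. Adjusted over the genes tested, the p of this permutation test was 0.200 and missed the limit. By its unadjusted p-value, Mest ranked 149 among the genes tested. Copg2, which overlaps the end of Mest on the opposite strand, had a log2 fold change near 0 (0.057, adjusted p = 0.808), and without a stated strand setting reads of the overlap cannot be assigned to 1 of the 2 genes.

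Plagl1 (ENSMUSG00000019817.19, chromosome 10, 13060504 to 13131694) encodes a zinc finger transcription factor that regulates other imprinted genes. Control 1 to 5 gave 4.51, 3.49, 5.03, 4.06 and 4.40 CPM, whereas KO 1 to 5 gave 2.63, 3.64, 2.75, 3.16 and 2.29 CPM. Only control 2, the lowest of its group, fell below a KO library, KO 2, the highest of its group. The mean log2 fold change was -0.56 (standard error 0.141), the lowest value of the 10 genes, and the adjusted p of 0.0703 missed the limit of 0.05. It passed without control 2 (adjusted p = 0.0482) and without KO 2 (adjusted p = 0.0464). The level was low, with 45 to 107 counts per library.

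Cdkn1c (ENSMUSG00000037664.14, chromosome 7, 143458339 to 143461050) encodes p57Kip2, an inhibitor of cyclin-dependent kinases. Control libraries 1 to 5 had 11.6, 12.2, 14.3, 10.3 and 11.3 CPM and KO libraries 1 to 5 had 9.87, 10.3, 9.21, 9.80 and 9.72 CPM. The groups touched at 1 point, where KO 2 was slightly above control 4. KO libraries were close to each other, with an SD of 0.382 CPM against 1.501 CPM in control. On the log2 scale KO minus control was -0.29 (standard error 0.0856, adjusted p = 0.136), and without control 4 it passed the limit (-0.33, adjusted p = 0.0441). Without control 4 and KO 1 it missed the limit (-0.34, adjusted p = 0.0576).

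Ndn (ENSMUSG00000033585.6, chromosome 7, 62346569 to 62350262) encodes necdin, a protein of the MAGE family. Control 1 to 5 gave 23.3, 25.3, 26.2, 15.1 and 23.8 CPM, whereas KO 1 to 5 gave 16.1, 18.2, 20.3, 22.5 and 19.4 CPM. Control 4 was the lowest of all 10 libraries, while the other 4 control libraries were above every KO library. KO differed from control by -0.24 on the log2 scale (standard error 0.133, adjusted p = 0.543). Without control 4 it was -0.35 (adjusted p = 0.0449), and without control 4 and KO 1 it was -0.29 (adjusted p = 0.0472), so a single control library decided whether Ndn passed the limit.

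Peg3 (ENSMUSG00000002265.18, chromosome 7, 6703892 to 6730431) encodes a large zinc finger protein. The control libraries lay at 30.2 to 52.7 CPM (median 39.6) and the KO libraries at 30.2 to 42.8 CPM (median 34.2). The ranges overlapped almost fully (log2 fold change -0.19, standard error 0.145, adjusted p = 0.699), and it was -0.070 without control 4. Zim1 (ENSMUSG00000002266.18), another zinc finger gene and the neighbor of Peg3, lies at 6671269 to 6696450 on the same strand. Levels in CPM were 3.20, 2.89, 3.10, 8.41 and 3.42 for control 1 to 5, against 8.04, 5.40, 2.57, 3.39 and 4.53 for KO 1 to 5. Control 4 and KO 1 were both above 8 CPM, and no other library was above 5.40 CPM. For Zim1 the log2 fold change came to 0.19 (standard error 0.345, adjusted p = 0.913), and without KO 1 it was -0.071.

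H19 (ENSMUSG00000000031.18, chromosome 7, 142575529 to 142578143) is a noncoding RNA. Control 1 to 5 gave 31.0, 15.6, 34.1, 64.1 and 30.1 CPM, whereas KO 1 to 5 gave 51.3, 26.0, 17.0, 26.2 and 21.6 CPM. Control 4 and KO 1 were again highest, and the remaining libraries of both groups overlapped. On the log2 scale KO minus control was -0.30 (standard error 0.342, adjusted p = 0.835), and without control 4 it was 0.044. Meg3 (ENSMUSG00000021268.19, chromosome 12, 109541001 to 109571726), a noncoding RNA of the Dlk1-Dio3 domain, gave 24.2, 11.8, 25.3, 30.5 and 5.45 CPM across control 1 to 5, whereas KO 1 to 5 gave 21.9, 16.2, 13.1, 4.72 and 11.5 CPM. Both genotypes included 1 library near 5 CPM, control 5 and KO 4. Its log2 fold change, -0.52, was as large as that of Mest, but its standard error was 0.424 against 0.0932 (adjusted p = 0.728). Leaving out 1 library moved it to -0.29 (without control 4) or -0.30 (without KO 4), and at most to -0.76 (without control 5).

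Grb10 (ENSMUSG00000020176.18) was the most abundant of the 10 genes, on chromosome 11 from 11930508 to 12038683. Levels in CPM were 160.2, 152, 152, 211 and 168 for control 1 to 5, against 213, 190.1, 157, 185 and 181 for KO 1 to 5. The KO mean was higher, but control 4 and KO 3 crossed over between the groups (log2 fold change 0.14, standard error 0.0952, adjusted p = 0.662). It was 0.084 without KO 1 and 0.23 without control 4 (adjusted p = 0.119).

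Impact (ENSMUSG00000024423.7, chromosome 18, 12955852 to 12992950) encodes an inhibitor of the amino acid sensor kinase GCN2. The control libraries lay at 68.6 to 77.4 CPM (median 72.3), and the KO libraries at 63.8 to 73.4 CPM (median 71.2). Its log2 fold change was -0.048, and the standard error of 0.0489 (adjusted p = 0.802) was the smallest of the 10 genes.

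**Figure D2:**
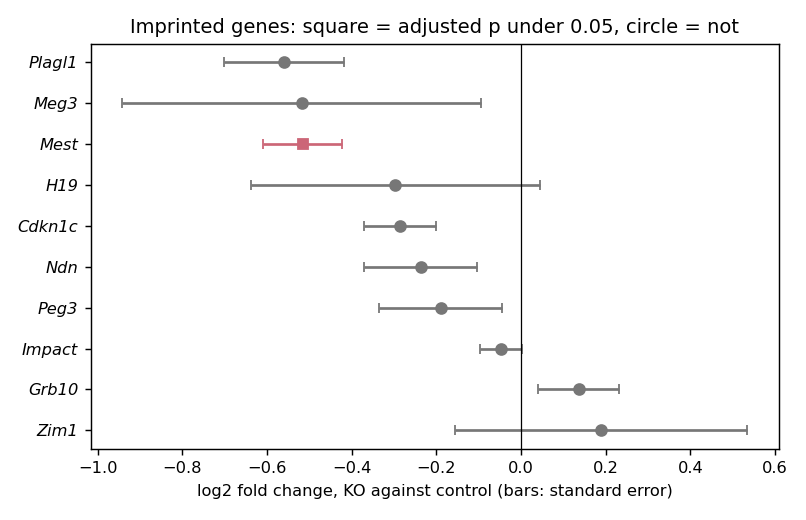
Log2 fold change, KO against control, of the 10 imprinted genes, with bars for the standard error. The square marks Mest, with an adjusted p under 0.05. Plagl1, Meg3 and Mest lie near -0.5 with standard errors of 0.141, 0.424 and 0.0932.

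As a group, 8 of the 10 genes had a log2 fold change below 0, against 50.3% of the 14270 genes tested. The median log2 fold change was -0.26, against -0.00085 over all genes. In the test, 1 of 10 was lower in KO (1.86% of all genes tested were lower) and 0 of 10 were higher (0.308% of all genes tested were higher). At an unadjusted p under 0.05, 3 members were lower (7.46% of all genes tested) and 0 were higher (4.43%). In DESeq2, 2 were lower, Mest and Plagl1 (2.52% of all genes tested), and 0 were higher (0.876%). Mest was also the 1 member whose KO libraries all lay below the control libraries, which held for 2.66% of all genes tested. For 0 members did they all lie above, which held for 1.31%. All 5 paternally expressed members had values below 0, as did 3 of the 5 maternally expressed members. In the wider list described further on, 8 of 16 paternally expressed and 17 of 26 maternally expressed genes tested were below 0.

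The spread between libraries of a genotype was next compared using the biological coefficient of variation, which edgeR estimates for each gene beyond counting error. The median over all genes tested was 8.27%. Meg3 had 46.4%, rank 29 of 14270 from the highest, H19 had 36.9%, rank 108, and Zim1 had 36.5%, rank 120. Low genes vary more, and each gene was therefore also ranked among the 1000 genes nearest to it in level. On that scale H19 had the highest spread of the 1000, Meg3 ranked 2 and Zim1 ranked 9. These ranks were not computed without control 4 and KO 1. Leaving both out took the standard error of the log2 fold change from 0.342 to 0.206 for H19 and from 0.345 to 0.199 for Zim1. That of Meg3 was 0.424 with and without them. Peg3, Ndn and Grb10, at 15.97%, 14.5% and 10.97%, ranked 40, 76 and 88. Mest (9.71%), Plagl1 (12.1%), Cdkn1c (8.44%) and Impact (6.07%) were nearer the middle, with ranks of 248, 464, 512 and 586.

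**Figure D3:**
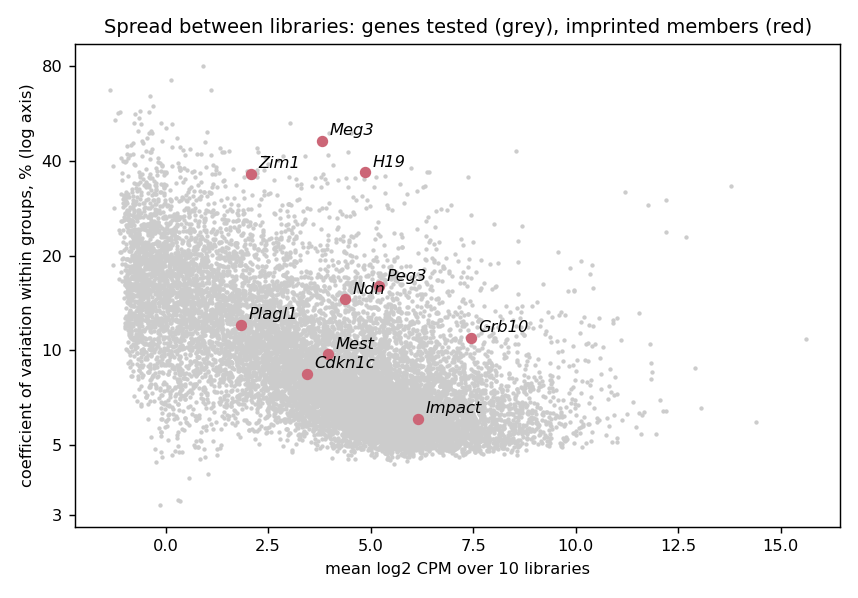
Coefficient of variation within genotypes, in percent on a log axis, against the mean log2 CPM over 10 libraries, for 14270 genes tested (grey) and the 10 imprinted genes (red). Meg3, H19 and Zim1 lie at 46.4%, 36.9% and 36.5%, near the upper edge of the cloud, and Impact at 6.07% lies in its lower part.

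Control 4 and KO 1 were the 2 highest of the 10 libraries for H19, Grb10 and Zim1, a position that 10.5% of all genes tested shared. They were the 2 lowest for Ndn and Impact, as for 8.82% of all genes. For H19 they had 64.1 and 51.3 CPM, against 15.6 to 34.1 CPM in the other 8 libraries. For Zim1 they had 8.41 and 8.04 CPM, against 2.57 to 5.40 CPM. The pattern crosses the genotypes, and what set these 2 libraries apart was not tested.

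Pairs of members were compared over the 10 libraries, 45 pairs in all, with p-values from 100000 permutations and Benjamini-Hochberg adjustment. Grb10 and Zim1 varied together (Pearson r = 0.93, adjusted p = 0.00675; Spearman rho = 0.92, adjusted p = 0.0243). Ndn ran opposite to Grb10 (r = -0.89, adjusted p = 0.0139; rho = -0.87, adjusted p = 0.0288) and opposite to Zim1 (r = -0.89, adjusted p = 0.0148; rho = -0.77, adjusted p = 0.0965). Without control 4 and KO 1, r was 0.82 for Grb10 and Zim1, -0.73 for Grb10 and Ndn, and -0.66 for Ndn and Zim1. Within genotypes, as deviations from the group means, r was 0.95, -0.87 and -0.91 for the same pairs, and of the 45 pairs only Grb10 with Zim1 passed the adjusted limit on that scale. H19 and Zim1 had r = 0.78 (adjusted p = 0.0598; rho = 0.59, adjusted p = 0.280), which fell to 0.25 without control 4 and KO 1 and thus rested on these libraries.

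A second set of pairs joined the 3 genes with the lowest unadjusted p-values. Mest and Cdkn1c had r = 0.82 (adjusted p = 0.0274; rho = 0.89, adjusted p = 0.0259), and r was 0.85 without the 2 libraries farthest from the median of Mest. Within genotypes r was 0.48 and missed the limit (exact permutation test, adjusted p = 0.496). The 3 genes were picked for their difference between the genotypes, which by itself raises r over the 10 libraries. Mest with Plagl1 (r = 0.79, within genotypes 0.27) and Plagl1 with Cdkn1c (r = 0.77, within genotypes 0.39) had adjusted p-values of 0.0598 each. The neighbors Peg3 and Zim1 had r = 0.66.

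**Figure D4:**
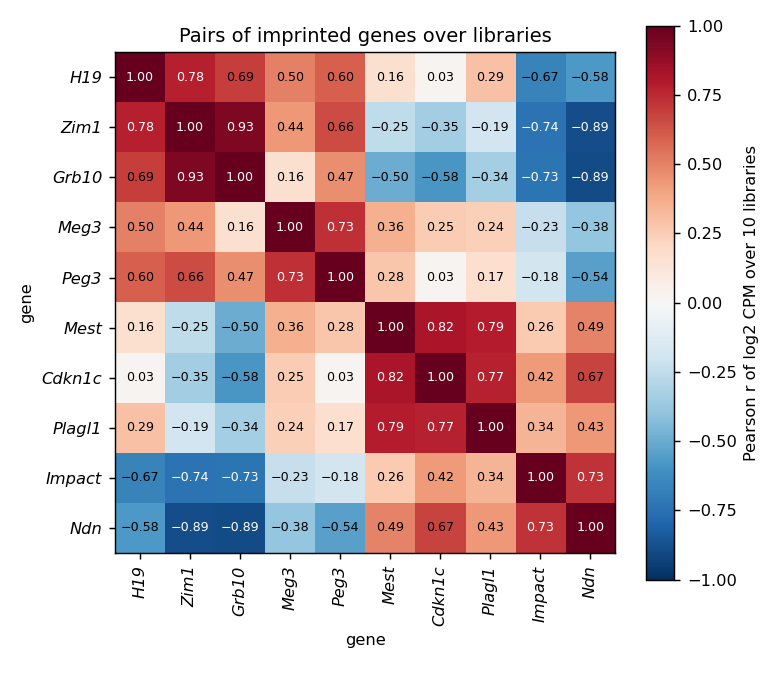
Pearson r of log2 CPM over 10 libraries for each pair of the 10 imprinted genes, from blue (-1) to red (1). The pairs past the adjusted limit are Grb10 with Zim1 (0.93), Ndn with Grb10 and with Zim1 (-0.89 each), and Mest with Cdkn1c (0.82).

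Because cultures hold several cell types, markers of other cells were set beside the members. In bulk RNA, fewer cells of a type and less RNA per cell cannot be told apart. Of 10 endothelial markers, 9 were lower in KO (1.86% of all genes tested were lower). The summed level of the 10 was 142 to 175 CPM in control and 56.6 to 85.9 CPM in KO libraries. Of 12 adipose progenitor markers, 3 were lower (Pdgfra, Cd34 and Cd248), with summed levels of 1804 to 2062 CPM in control and 1569 to 1734 CPM in KO libraries. Of these 12, 10 had a log2 fold change below 0, while Thy1 (0.028) and F3 (0.22) were above it, short of the limit. None of the 10 adipocyte, 8 macrophage and 7 tested pericyte and smooth muscle markers passed the limit. All 7 tested pericyte and smooth muscle markers had a log2 fold change below 0 (median -0.35). This held for 2 of the 10 adipocyte and 4 of the 8 macrophage markers. No endothelial or progenitor marker was at 0 in all libraries.

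The level of each member was then related to the mean log2 CPM of the endothelial, progenitor and adipocyte lists, 30 relations in all. Mest followed the endothelial markers (r = 0.88, adjusted p = 0.0442; rho = 0.79, adjusted p = 0.0908), with r = 0.78 without the 2 libraries farthest from the median. Plagl1 followed the progenitor markers (r = 0.85, adjusted p = 0.0442; rho = 0.78, adjusted p = 0.0908), with r = 0.70 without the 2 farthest libraries. Within genotypes, r was 0.29 for Mest and 0.52 for Plagl1, and none of the 30 relations passed the adjusted limit. Whether these cells had a part in the levels of Mest or Plagl1 was not tested.

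Other imprinted genes were taken from a list of 63, of which 61 were in the table and 42 were abundant enough to test. Nnat and Dio3 were lower in KO, 2 of 42 (1.86% of all genes tested), and 0 of 42 were higher (0.308%). All 7 of those with an unadjusted p under 0.05 were lower, whereas over all genes 7.46% were lower and 4.43% higher at that limit. In DESeq2, 0 of the 42 passed the adjusted limit as higher (0.876% of all genes tested). The median log2 fold change of the 42 was -0.025, against -0.00085 over all genes tested.

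Nnat, which encodes neuronatin, a small membrane proteolipid, gave 4.35, 4.72, 5.50, 3.67 and 4.27 CPM across control 1 to 5, whereas KO 1 to 5 gave 1.98, 2.72, 3.19, 2.84 and 2.70 CPM. No KO library reached the lowest control library (log2 fold change -0.74, standard error 0.142, adjusted p = 0.0145). Nnat lies within Blcap, which is on the opposite strand. As for Mest and Copg2, the strand setting is not stated, so reads of the overlap cannot be assigned to 1 of these 2 genes. Dio3, the deiodinase that inactivates thyroid hormone, gave 35.6, 37.4, 38.3, 26.5 and 38.3 CPM across control 1 to 5, whereas KO 1 to 5 gave 25.8, 22.5, 26.8, 24.4 and 25.0 CPM. Control 4 and KO 3 crossed over between the groups (log2 fold change -0.50, standard error 0.0934, adjusted p = 0.0128). Both genes are expressed from the paternal allele, like Mest.

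Neighbors of the members in their imprinted domains are given next. In the Dlk1-Dio3 domain, Dio3 was lower in KO, while Dlk1, an inhibitor of adipogenesis, had a difference of -0.17 on the log2 scale (standard error 0.118, adjusted p = 0.663) and Meg3 had that given above. Dlk1 was 8.06 CPM in KO 4 and was 10.6 to 13.6 CPM in the other 9 libraries. Igf2, the growth factor gene next to H19, had 0 to 2 counts per library and was not tested. Igf2r, the receptor that clears IGF2, was 47.4 ± 9.75 CPM in control and 47.7 ± 6.41 CPM in KO libraries (SD, n = 5; adjusted p = 0.993).

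Among the other paternally expressed genes, the highest levels per length in control libraries were those of Peg10 (17.7 CPM per kb), Dio3 (17.3), Mcts2 (12.1), Peg13 (6.52) and Zrsr1 (5.97 CPM per kb). Peg10, a gene derived from a retrotransposon, varied widely, with 118 ± 47.0 CPM in control and 102 ± 35.9 CPM in KO (SD, n = 5). The log2 fold changes of Mcts2, Peg13 and Zrsr1 lay between 0.0011 and 0.049, with adjusted p-values of at least 0.889. Of the maternally expressed genes, Dcn (142 CPM per kb), Gnas (72.6), Cd81 (71.5), Nap1l4 (53.7) and Pon3 (15.4 CPM per kb) were highest. Gnas, which encodes the stimulatory G protein subunit, was 812 ± 15.9 CPM in control and 813 ± 13.3 CPM in KO (SD, n = 5). Several of these genes are imprinted only in some tissues or stages, and the counts do not show whether they were imprinted here. None of the 26 maternally expressed genes tested passed the limit, and 5 of them, all lower, had an unadjusted p under 0.05.

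**Figure D5:**
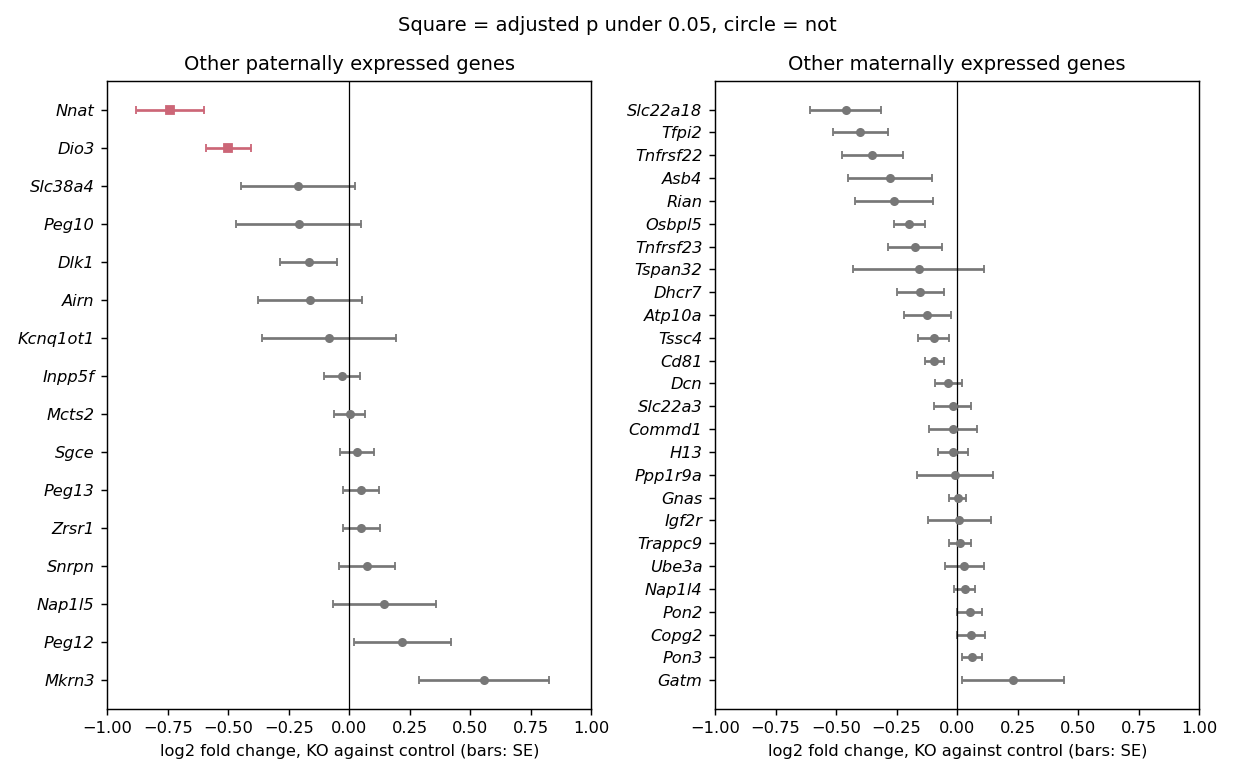
Log2 fold change, KO against control, of 16 other paternally expressed (left) and 26 other maternally expressed (right) genes that were tested, with bars for the standard error. Squares mark Nnat and Dio3, at -0.74 and -0.50, with an adjusted p under 0.05.

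Rasgrf1, a paternally expressed exchange factor for Ras, was too low for the filter and was picked out after its values were seen. It had 0, 3, 2, 2 and 1 counts in control libraries 1 to 5 and 18, 26, 20, 9 and 12 counts in KO libraries 1 to 5. All KO libraries were above all control libraries. Without the filter, it was the 1 imprinted gene of the list that passed the limit as higher in KO. Its highest level was 1.14 CPM.

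Paralogs and partners of the members were described last, 18 genes of a list of 20 being in the table and 16 tested. Maged2 and Maged1, both of the MAGE family like Ndn, were lower in KO, and Atf4, the transcription factor induced through GCN2, was higher, so 2 of 16 were lower (1.86% of all genes tested) and 1 of 16 was higher (0.308%). Maged2 gave 27.3, 28.2, 35.3, 24.9 and 30.9 CPM across control 1 to 5, whereas KO 1 to 5 gave 22.2, 21.2, 21.5, 22.8 and 20.4 CPM, with no overlap (log2 fold change -0.44, standard error 0.0830, adjusted p = 0.0137). Maged1 was 271 ± 15.04 CPM in control and 235 ± 9.99 CPM in KO (SD, n = 5; log2 fold change -0.20, standard error 0.0467, adjusted p = 0.0408). Atf4 was 322 ± 16.9 CPM in control and 367 ± 9.65 CPM in KO (SD, n = 5), with every KO library above every control library (log2 fold change 0.19, standard error 0.0423, adjusted p = 0.0388). The calls of Maged1 and Atf4 were close to the limit, and without KO 2 none of the 3 genes passed it. With 1 library left out, a gene of this list passed as higher in KO only when that library was control 4. The paralogs of Cdkn1c, Cdkn1a (441 ± 17.7 CPM in control, 465 ± 13.3 CPM in KO) and Cdkn1b (45.4 ± 2.12 and 48.5 ± 2.01 CPM), had adjusted p-values of 0.473 and 0.442. The insulin receptor gene Insr, whose product Grb10 binds, was 153 ± 21.9 CPM in control and 159 ± 23.2 CPM in KO (SD, n = 5; adjusted p = 0.914). By level per length, Atf4 (137 CPM per kb), Cdkn1a (124), Maged1 (62.3), Insr (11.1) and Cdkn1b (9.97 CPM per kb) led this list.

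For each member, the genes most like it over the 10 libraries were found by Pearson r of deviations from the group means, among 9302 or 9303 genes whose mean log2 CPM was 3 or more. H19 was most like Nox4 (r = 0.97) and Anxa2 (0.97), Meg3 most like Snhg17 (0.97) and Dnm3os (0.96), and Peg3 most like Sf3b1 (0.99) and Rbm33 (0.97). Grb10 followed Acly (0.99) and Map4k4 (0.99), Zim1 followed Atp8b1 (0.98), and Ndn followed Irs3 (0.99) and Ppp1r14b (0.99). Impact was nearest to Gemin2 (0.97) and Stx17 (0.97). The best matches of Mest (Psmg1, 0.94, and Ift88, 0.91), Plagl1 (Nudt2, 0.93, and Ppp1r13b, 0.92) and Cdkn1c (Dctn6, 0.91, and Rhobtb2, 0.90) were looser. These are the highest of all those values over 10 libraries that share depth and composition. None of the genes named in this list passed the limit for KO against control. For H19, Grb10 and Zim1, control 4 and KO 1 were the 2 highest libraries, as for 10.5% of all genes tested. They were the 2 lowest for Ndn and Impact, as for 8.82%. These values of r were not computed without the 2 libraries.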

How the data were processed

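RNA-seq was performed on 5 control and 5 Ad-Fam20c–KO libraries of primary differentiated adipocytes. The authors used SMARTer v4 chemistry with Nextera XT, aligned paired reads to GRCm38.p6 (mm10 per the labels) by STAR, and deposited raw counts per gene from featureCounts with an Ensembl annotation; the strand setting is not given in the sources used here. Positions and exon lengths were taken from GENCODE M21 on the same build, matched by gene identifier.

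KO was tested against control in R 4.3.3 by the quasi-likelihood test of edgeR 4.0.16 with TMM factors. The filter filterByExpr (at least 10 counts) left 14270 genes, and p-values were adjusted by Benjamini-Hochberg with a limit of 0.05. Genotype was the only term. A prior count of 2 entered log2 CPM. Standard errors were computed as the fold change on the log2 scale over the root of F. Exact permutation tests covered all 252 assignments of libraries. Scripts were tested on simulated counts.

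The members and lists were chosen with earlier results of these data known. Named genes were the 10 members, Fam20c, Igf2, Igf2r and Dlk1, list genes past the limit, the 5 of each list highest per kb, and the 2 genes most like each member (1 of them is not reported here); Rasgrf1, Copg2 and Blcap were added. Alternatives were DESeq2 1.42.0, other size factors and filters, limma 3.58.1 voom, a replicate block and libraries left out. Total counts were 18949106 to 26237825 per library, and at such depth the genes under 5 CPM rest on few counts.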

Additional observations from a re-analysis of the deposited data

Results flagged for a closer look

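Each group of 5 libraries was searched for a highest or lowest library whose gap to the next, divided by the range of the group, passed Dixon's critical value of 0.71, for the 10 members and Fam20c. Of 22 groups, 4 had such a library, against about 1.1 at the nominal rate of the test. The groups are not independent, as Grb10, Ndn and Zim1 were correlated over libraries. The share over all genes was not computed, so the 4 cannot be read as a trait of the imprinted genes. Control 4 and KO 1 were the 2 highest libraries for 10.5% of all genes tested and the 2 lowest for 8.82%. For H19, KO 1 had 51.3 CPM against 17.0 to 26.2 CPM in the other KO libraries (ratio 0.732). For Grb10, control 4 had 211 CPM against 152 to 168 CPM in the other control libraries (0.723). For Ndn, control 4 had 15.1 CPM against 23.3 to 26.2 CPM (0.735). For Zim1, control 4 had 8.41 CPM against 2.89 to 3.42 CPM (0.903). All 4 involve the 2 libraries that stood apart on the first principal component over all genes, and the cause was not tested.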

How the results depend on the processing

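Over 180 refits of the 10 members (10 genes under 18 alternatives each), 172 kept the direction and the side of the limit, 6 passed the limit that the reported value had missed, and 2 turned direction. Mest stayed lower and past the limit throughout, with log2 fold changes of -0.57 to -0.47 when each library was left out. The 2 turns were H19 without control 4 (0.044) and Zim1 without KO 1 (-0.071); with each library left out, the log2 fold change lay between -0.61 and 0.044 for H19 and between -0.071 and 0.60 for Zim1. Plagl1 passed in DESeq2 (adjusted p = 0.0204), without control 2 (0.0482) and without KO 2 (0.0464). Cdkn1c passed without control 4 (0.0441), and Ndn did without control 4 and without control 4 and KO 1. The members lower in KO were thus 1 as reported, 2 in DESeq2, 2 without control 4 and KO 1, and 1 to 3 with each library left out. Over all genes tested, those lower were 265 of 14270 as reported, 359 of 14270 in DESeq2 and 353 of 14340 without control 4 and KO 1. Without control 4 alone, where 3 members passed, 323 of 14383 genes were lower.

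Over all genes, 44 were higher as reported, 125 in DESeq2, 111 in voom, 21 with the replicate block, 145 without control 4 and KO 1, and 19 to 119 with each library left out, where the lower genes numbered 164 to 323. Other imprinted genes higher in KO were 1 without the filter (Rasgrf1) and 0 to 1 with each library left out. Those lower were 1 to 3 with each library left out. In these refits the filter let through 43 to 45 genes of the list, against 42 as reported. Of the partners, 1 was lower with RLE or upper quartile factors, without the filter and with the replicate block, and 0 to 2 were with each library left out. None (0) was higher without the filter or with the replicate block. With 1 library left out, 1 was higher without control 4 and 0 without any other library. Of the 14270 genes tested, 255 were lower with RLE factors, 269 with upper quartile factors and 193 with the replicate block. Without the filter, 286 of 27306 genes were lower and 51 were higher. As deviations from group means, 1 pair of members, against 4, and 0 marker relations, against 2, passed.

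Libraries of the same number in both groups did not pair: the correlations of their deviations were -0.17, 0.089, 0.26, -0.25 and 0.034, and 1 of 5 correlated best with its own number. Under the replicate block, the members lower in KO numbered 1 as well. Depth limits Plagl1, Zim1 and Rasgrf1 most, and gene sums do not resolve alleles, start sites or strands.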
